A study of Mus musculus with 6 samples.

Results

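The genes described here are 7 transcripts by which Ly6C-high (inflammatory) monocytes are commonly recognised in mice, namely Ly6c2, Plac8, Chil3, Hp, F13a1, Fn1 and Vcan. They were found by gene symbol in the deposited table, where all 7 of the 21492 listed genes were present under 1 row each, and all 7 passed the filter on low values. The table holds RNA-seq values of osteoclasts (OCs), multinucleated cells that resorb bone, induced from bone marrow of WT mice (libraries 3, 82 and 94) and of Dcir-/- mice (libraries 21, 22 and 83). Clec4a2 encodes DCIR, a lectin receptor that inhibits signaling in myeloid cells, and the comparison asks how RNA levels in OCs differ when it is missing. Both genotypes were on the C57BL/6J background, aged 8 to 12 weeks by the study's methods, and all cultures received M-CSF (20 ng/ml) together with RANKL at 100 ng/ml. The labels give cells at day 4 after 2 days with RANKL, whereas the methods give 2 days of macrophage growth and then 4 days with RANKL. Dcir-/- mice lack the gene in every cell. WT mice came from a supplier and were kept beside the Dcir-/- mice, so that genotype and origin cannot be told apart. No source says whether each library stands for its own mouse or culture, and the p-values reflect how these libraries scatter, which can be technical.

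Monocytes leave the bone marrow as Ly6C-high cells and can mature into Ly6C-low monocytes, macrophages or, with M-CSF and RANKL, OCs. In bone marrow cultures, cells that still carry monocyte transcripts stand beside macrophages and forming OCs. Several of the 7 genes are not restricted to monocytes: Chil3 and Hp are also transcribed in maturing neutrophils, F13a1 in some tissue macrophages and megakaryocytes, and Fn1 and Vcan in stromal cells. The Plac8 protein is likewise found in several myeloid and lymphoid cells. In these bulk libraries, fewer cells of a type and less RNA per cell cannot be told apart.

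Facts of the libraries that bear on all values come first. Totals of the deposited values lay between 33035020.2 and 34068308.6 per library, since the authors had adjusted them to a common size, and levels are given as CPM, the adjusted counts scaled to a common total. Clec4a2, the targeted gene, was at 268 ± 25.9 CPM (SD, n = 3) in WT and at 0.812 ± 0.329 CPM in Dcir-/- OCs, in keeping with the labels. In a principal component analysis, the first component (53.5% of the variance) ran from WT library 3 (score 35.3) to Dcir-/- library 21 (-22.4). On it, WT libraries 82 and 94 (7.1 and -4.1) lay above Dcir-/- libraries 22 and 83 (-7.5 and -8.4). The second component (27.5%) set WT library 94 apart. The 15 OC markers on the list used here summed to 20800 to 23430 CPM in WT and 21340 to 27740 CPM in Dcir-/- libraries, so the labelled cell type carried its markers in every library. Of them, 0 passed limma's adjusted p of 0.05, where 0.441% of all tested genes did. At an unadjusted p under 0.05, 4 were higher (5.82% of all tested genes were). The mean was higher in Dcir-/- OCs for 14, where 46.1% of all tested genes had the lower mean, and the list's median log2 fold change was 0.14. Dcir-/- library 21 was the highest of the 6 libraries for 14 of the 15 markers. The sums of Dcir-/- libraries 22 and 83, 21340 and 23170 CPM, lay within the WT range. Beside these sums, the 7 monocyte genes together made up 223 ± 40.0 CPM in WT and 129 ± 10.6 CPM in Dcir-/- OCs (n = 3 each), of which Chil3 alone supplied 59.6% to 69.8% per library.

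All 7 genes lie on the minus strand of the mouse genome mm10, in GENCODE M21 as protein-coding genes. Ly6c2 spans chr15:75108158-75111970, Chil3 chr3:106147554-106167564 and Plac8 chr5:100553725-100572245. Hp spans chr8:109575128-109579172 and Fn1 chr1:71585520-71653200. F13a1 (chr13:36867178-37050244) and Vcan (chr13:89655312-89742509) share a chromosome but are not neighbours. RefSeq promoter windows, each from 250 bases before to 50 bases after a start site (GRCm38.p6), were at hand for 5 of the 7 genes in 8 windows, and are shown because PU.1 and C/EBP factors are known to act at promoters of monocyte genes. Windows of 3 genes whose CPM did not overlap between genotypes are printed 5′ to 3′ on the gene's strand, with matches to the PU.1 motif GAGGAAGT (Ly6c2, F13a1) or its shorter core GAGGAA (Plac8), on either strand, in capitals.
Ly6c2, chr15:75111922-75112221: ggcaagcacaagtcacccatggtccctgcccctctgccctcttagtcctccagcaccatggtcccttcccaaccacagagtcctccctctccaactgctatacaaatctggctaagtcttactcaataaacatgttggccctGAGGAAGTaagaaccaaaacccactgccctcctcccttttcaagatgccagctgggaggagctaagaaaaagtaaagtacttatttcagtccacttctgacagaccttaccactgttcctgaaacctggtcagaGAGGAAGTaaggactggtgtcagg
F13a1, chr13:37049164-37049463: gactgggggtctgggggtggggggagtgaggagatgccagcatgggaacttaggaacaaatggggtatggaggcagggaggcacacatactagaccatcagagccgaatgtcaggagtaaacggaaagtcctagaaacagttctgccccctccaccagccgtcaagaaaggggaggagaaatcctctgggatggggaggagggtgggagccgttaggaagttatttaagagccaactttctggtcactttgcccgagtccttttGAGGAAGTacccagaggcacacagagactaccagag
Plac8, chr5:100572156-100572455: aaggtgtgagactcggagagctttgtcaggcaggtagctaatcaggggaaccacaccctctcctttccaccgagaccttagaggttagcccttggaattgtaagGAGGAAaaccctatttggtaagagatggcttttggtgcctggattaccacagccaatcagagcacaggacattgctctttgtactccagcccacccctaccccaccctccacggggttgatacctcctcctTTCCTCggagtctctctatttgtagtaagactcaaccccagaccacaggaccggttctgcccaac

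The Ly6c2 window held GAGGAAGT at 2 places, beginning 108 bases before and 27 bases after the start site, and its other window held the same pair counted from another start site. F13a1 held it once, 15 bases after the start site printed here. Among 32851 mouse windows of this length, 3.202% held GAGGAAGT on either strand. The shorter GAGGAA, which lies within GAGGAAGT, was found in 28.276% of windows, and among them were both F13a1 windows and the Plac8 window above. A second Plac8 window held the C/EBP motif TTGCNNAA (10.797% of all windows), and 0 of the 8 windows held the interferon-response motif searched (3.443%). The windows of Chil3 and Vcan held none of these 4 motifs. A match describes letters only, and binding was not measured here.

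Levels per kilobase of exon place the genes on 1 scale. In WT OCs, Chil3 was highest at 86.3 ± 14.4 CPM per kb (SD, n = 3), followed by Hp at 6.60 ± 0.730 CPM per kb, and the ranges of these neighbours did not overlap. F13a1 (5.02 ± 1.52), Ly6c2 (4.76 ± 0.903) and Plac8 (4.59 ± 1.06 CPM per kb) came next, with ranges that overlapped from each to the next. Vcan at 1.04 ± 0.519 and Fn1 at 0.169 ± 0.0789 CPM per kb closed the order. In Dcir-/- OCs Chil3 (50.3 ± 8.02) and Hp (3.89 ± 0.643 CPM per kb) kept the first places and Vcan and Fn1 the last, while F13a1 stood after Ly6c2 and Plac8, at 1.75 ± 0.458 CPM per kb, in a range that overlapped that of Vcan.

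Across the genotypes, 5 of the 7 genes, Ly6c2, Plac8, Chil3, Hp and F13a1, had lower levels in every Dcir-/- library than in any WT library. Among all 14047 genes tested, 9.34% showed that separation in that direction. The remaining genes, Fn1 and Vcan, which encode extracellular matrix proteins, overlapped between the genotypes. The count of 5 stands beside a choice of genes made with earlier results of these data known, and is a description. By limma with Benjamini-Hochberg adjustment over all genes tested, 0 of the 7 passed an adjusted p of 0.05, where 0.441% of all genes passed in either direction and 0.292% as lower in Dcir-/- OCs. At an unadjusted p under 0.05, 5 of the 7 were lower, against 6.68% of all genes, and 0 were higher, against 5.82%. At an adjusted p under 0.1, 3 were lower (F13a1, Ly6c2 and Chil3), against 0.520%. The median log2 fold change of the 7 was -0.77 and that of all tested genes 0.01. An exact permutation test of 3 against 3 libraries cannot go below a two-sided p of 0.10. Each of the 5 separated genes has that value by construction, so the test adds nothing to the separation.

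**Figure D1:**
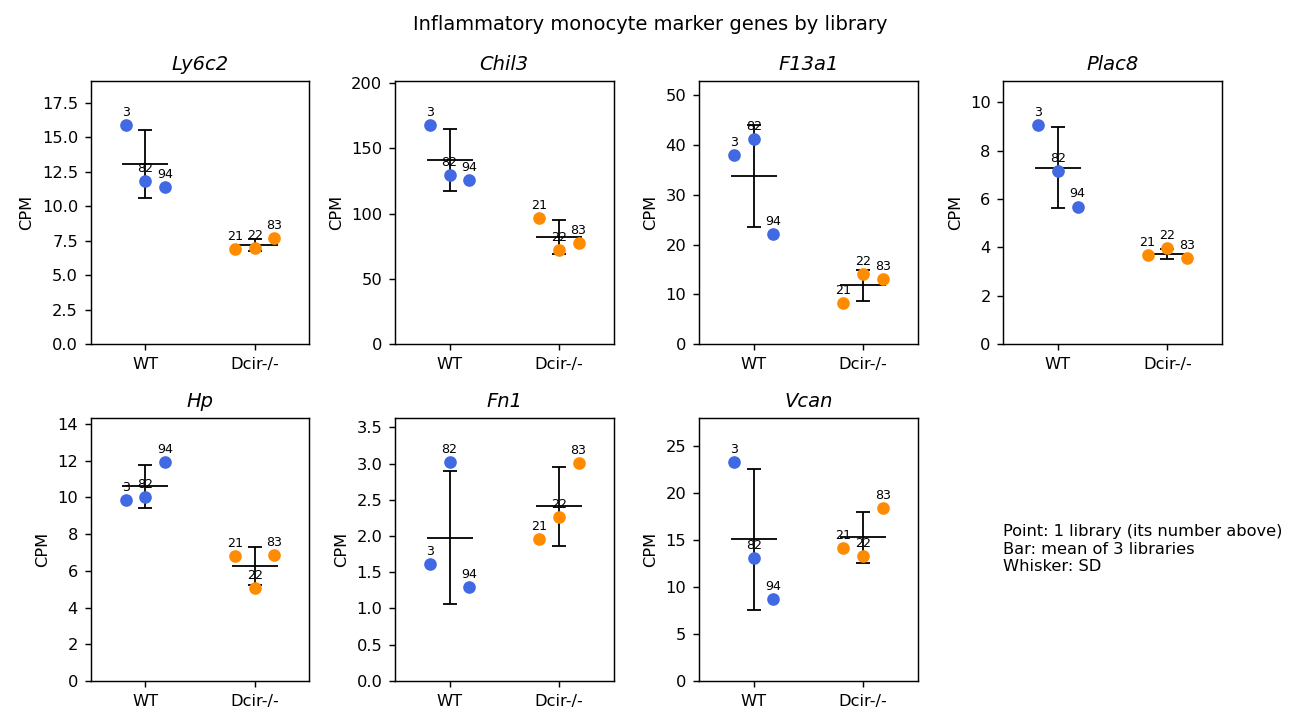
Level of each gene in CPM (vertical axis, from 0) in the 3 WT and 3 Dcir-/- libraries; each point is 1 library with its number, the bar is the mean and the whisker the SD. In the panels of Ly6c2, Chil3, F13a1, Plac8 and Hp every Dcir-/- point lies under every WT point, and in those of Fn1 and Vcan the points overlap.

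Ly6c2 and Plac8 are the first of the 7 genes taken in turn. Ly6c2 encodes Ly6C2, a lipid-anchored surface protein and part of the antigen by which Ly6C-high monocytes are sorted. Its level was 15.9, 11.8 and 11.4 CPM in WT libraries 3, 82 and 94, and 6.90, 6.99 and 7.67 CPM in Dcir-/- libraries 21, 22 and 83. The Dcir-/- libraries lay close together, and WT library 3 stood above the other WT libraries. The log2 fold change, Dcir-/- over WT on log2(CPM + 1), was -0.77 (SE 0.14, 95% CI -1.09 to -0.44, limma adjusted p = 0.0816). Of the 100-base stretches of Ly6c2 exons, 5.81% also occur in its near-identical neighbour Ly6c1, so part of the reads cannot be assigned with certainty. Ly6c1 was looked for by symbol and has no row in the deposited table.

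Plac8 encodes a small cysteine-rich protein found in several myeloid and lymphoid cells. Plac8 stood at 9.06, 7.15 and 5.69 CPM in WT libraries 3, 82 and 94 and at 3.69, 3.97 and 3.58 CPM in Dcir-/- libraries 21, 22 and 83. The WT values spread widely and the Dcir-/- values hardly at all, with an SD of 1.69 CPM in WT and 0.203 CPM in Dcir-/- OCs (n = 3 each). Its log2 fold change was -0.79 (SE 0.16, 95% CI -1.16 to -0.42, limma adjusted p = 0.109).

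Chil3, Hp and F13a1 encode secreted or released proteins. Chil3 encodes the chitinase-like lectin Ym1, made in mice by monocytes, alternatively activated macrophages and neutrophils. Chil3 was at 167.8, 129.3 and 125.4 CPM in WT libraries 3, 82 and 94 and at 96.9, 72.0 and 77.5 CPM in Dcir-/- libraries 21, 22 and 83. Library 3 was again the highest of the WT group, and the highest Dcir-/- library, 21, remained under the lowest WT library. The log2 fold change was -0.77 (SE 0.14, 95% CI -1.10 to -0.45, limma adjusted p = 0.0816). Of the 100-base stretches of Chil3 exons, 3.42% also occur in Chil4, which has no row under that symbol in the deposited table, and 1.52% in Gm6522.

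Hp encodes haptoglobin, the plasma protein that captures free hemoglobin and that neutrophils store in granules. The level of Hp was 9.85, 10.0 and 11.9 CPM in WT libraries 3, 82 and 94, and 6.83, 5.05 and 6.85 CPM in Dcir-/- libraries 21, 22 and 83. Hp was the only one of the 7 genes with its highest value in WT library 94, which was the lowest WT library for the 6 others. Its log2 fold change was -0.68 (SE 0.14, 95% CI -1.01 to -0.36, limma adjusted p = 0.118).

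F13a1 encodes the A subunit of coagulation factor XIII, a transglutaminase that cross-links fibrin and matrix proteins. F13a1 was at 38.1, 41.3 and 22.2 CPM in WT libraries 3, 82 and 94 and at 8.29, 14.1 and 13.1 CPM in Dcir-/- libraries 21, 22 and 83. WT library 94 lay between the other WT libraries and the Dcir-/- group without reaching the latter. The log2 fold change of -1.43 (SE 0.25, 95% CI -2.01 to -0.85, limma adjusted p = 0.0701) was the largest in size of the 7, as it was in each fit with 1 library left out. Exons of F13a1 overlap those of the antisense gene Gm30489, which was at 1.75 ± 0.697 CPM in WT and 0.841 ± 0.113 CPM in Dcir-/- OCs (n = 3 each). The strand setting of the counting is not given in the sources used here, and the share of reads that came from either gene cannot be told.

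Fn1 and Vcan encode fibronectin, to which integrins on monocytes and OCs bind, and versican, a large chondroitin sulfate proteoglycan. Fn1 was at 1.61, 3.03 and 1.30 CPM in WT libraries 3, 82 and 94 and at 1.96, 2.26 and 3.01 CPM in Dcir-/- libraries 21, 22 and 83. WT library 82 and Dcir-/- library 83 were the highest and nearly equal, and the groups overlapped over most of their range. The log2 fold change was 0.23 (SE 0.22, 95% CI -0.29 to 0.74, limma adjusted p = 0.740), an interval that holds both a lower and a higher level. Of the 12 stromal cell markers in the table, 6 were highest in WT library 82, 3 in Dcir-/- library 83, 2 in WT library 3 and 1 in Dcir-/- library 22. The fibroblast and osteoblast collagen gene Col1a1 was at 1.18 CPM in WT library 82 and at 0.0684 CPM in Dcir-/- library 83. Dcn, another marker of that list, went the other way, at 0.555 and 0.836 CPM, and all of these values are low. The part of stromal cells in the level of Fn1 was not tested. Exons of Fn1 overlap those of the antisense gene Apol7d, whose own values reached 0.0642 CPM at most.

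Vcan was at 23.4, 13.1 and 8.76 CPM in WT libraries 3, 82 and 94 and at 14.2, 13.3 and 18.4 CPM in Dcir-/- libraries 21, 22 and 83. The WT group held both the highest and the lowest of the 6 values, and the Dcir-/- group lay between them. The log2 fold change was 0.11 (SE 0.29, 95% CI -0.56 to 0.78, limma adjusted p = 0.920). Its sign rested on single libraries, since it was -0.20 without WT library 94 and -0.02 without Dcir-/- library 83.

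**Figure D2:**
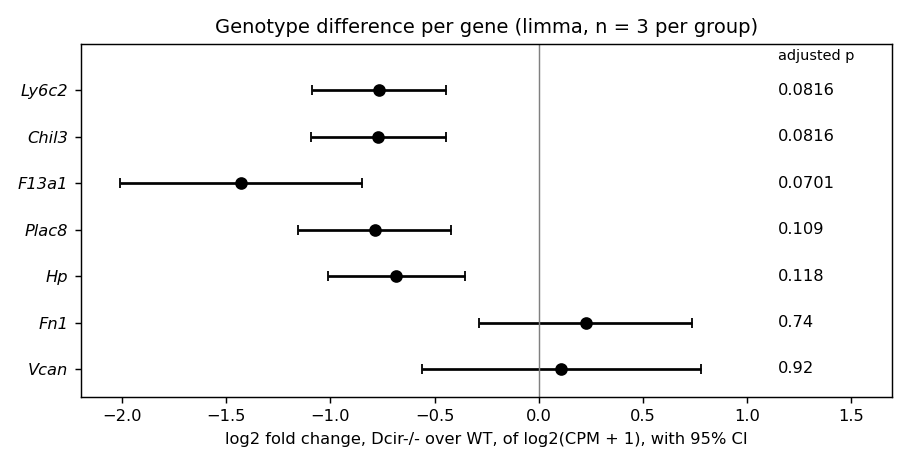
Log2 fold change of each gene, Dcir-/- over WT on log2(CPM + 1) (horizontal axis), as a point with its 95% CI from limma, and the adjusted p at the right (n = 3 per group). The intervals of Ly6c2, Chil3, F13a1, Plac8 and Hp lie under 0, those of Fn1 and Vcan span 0, and 0 of the 7 adjusted p-values are under 0.05.

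The calls depended on which WT libraries entered. Without WT library 3, which was the highest of all 6 libraries for Ly6c2, Chil3, Plac8 and Vcan, limma called 3 of the 7 genes, F13a1 (log2 fold change -1.32, adjusted p = 0.0379), Chil3 (-0.64, adjusted p = 0.0325) and Ly6c2 (-0.63, adjusted p = 0.0485). Without WT library 94, it called 2, F13a1 (-1.70, adjusted p = 0.0200) and Plac8 (-0.93, adjusted p = 0.0358). With any of the other 4 libraries left out, 0 of the 7 passed. Over all tested genes, 126 of 13912 were called without WT library 3 and 75 of 13941 without WT library 94. Without WT library 82 there were 9 such calls, and without Dcir-/- libraries 21, 22 and 83 there were 8, 2 and 6. The fits with calls among the 7 were thus those with the most calls over all genes. The group left with 2 libraries in such a fit is assumed to vary like the other.

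**Figure D3:**
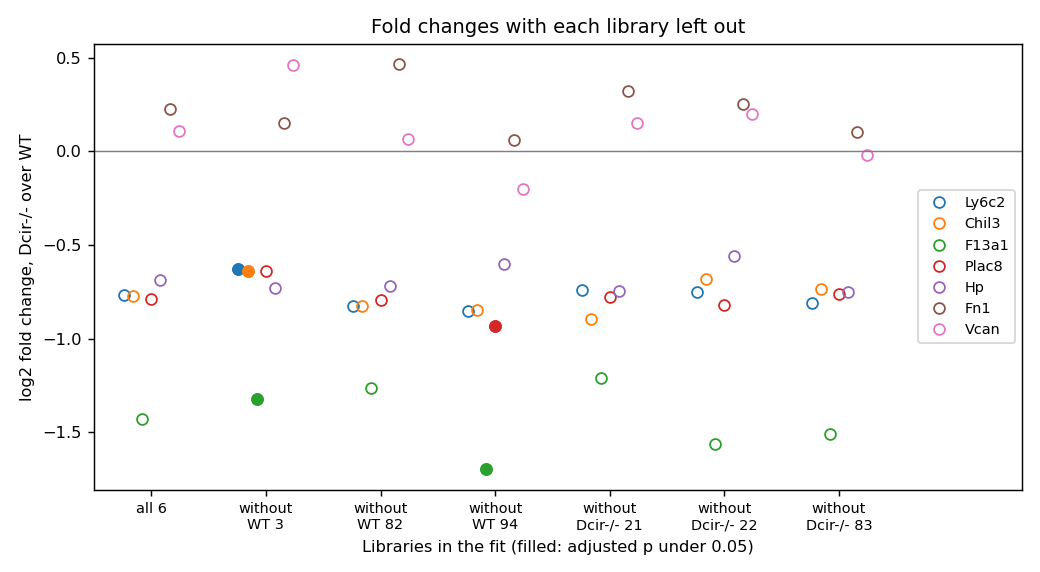
Log2 fold change of each gene, Dcir-/- over WT (vertical axis), with all 6 libraries and with each library left out in turn (horizontal axis); filled circles have a limma adjusted p under 0.05. Ly6c2, Chil3, F13a1, Plac8 and Hp stay under 0 throughout, F13a1 is lowest in each fit, and Vcan lies on both sides of 0.

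The genes were also compared by their profiles over the 6 libraries, with the genotype difference left in. Likeness was measured as the root mean square (RMS) difference of log2(CPM + 1), each gene centred on its mean over the 6 libraries, so that 0 means the same profile. Genes with unlike fold changes are therefore unlike by this measure too. Here and for the nearest profiles below, it partly restates the fold changes. Among the 21 pairs of the 7 genes, Ly6c2 and Plac8 were the most alike (RMS difference 0.0987), followed by Ly6c2 and Chil3 (0.149), and F13a1 and Fn1 the least (0.863). Hp was nearer to Chil3 (0.223) than to F13a1 (0.598). Fn1 and Vcan differed from each other by 0.442 and from each of the other 5 genes by more than that. All points share the 6 libraries, and no test was made.

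**Figure D4:**
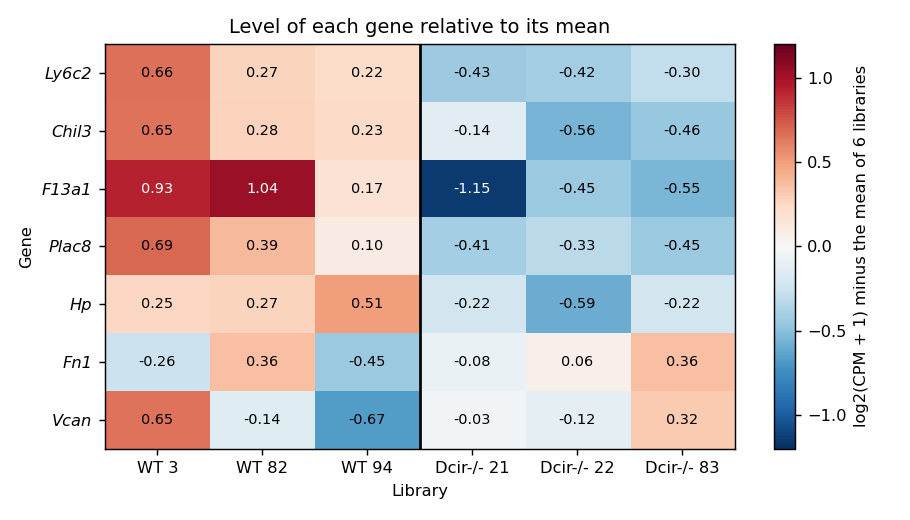
Level of each gene (rows) in each library (columns) as log2(CPM + 1) minus the gene's mean over the 6 libraries, with the value in each cell and red above and blue below the mean. Ly6c2, Chil3, F13a1, Plac8 and Hp are above their mean in the 3 WT libraries and below it in the 3 Dcir-/- libraries, whereas Fn1 and Vcan change sign within both groups.

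Among all other tested genes, the profile nearest to that of Ly6c2 was that of Apoe (RMS difference 0.0663), the lipid carrier of macrophages, followed by Prxl2b and Ebi3, and Apoe was also among the nearest to Chil3 (0.0980), after G530011O06Rik and Treml2. Nearest to F13a1 were Mgl2 (0.183), Stab1 (0.203) and Clec10a (0.205). Mgl2 and Clec10a encode galactose-type lectins and Stab1 a scavenger receptor, all known from alternatively activated macrophages. Nearest to Hp were Rflnb, Itgb2l and S100a9 (0.103), of which S100a9 is an abundant neutrophil and monocyte transcript. Etv5, Ggt5 and Gm1673 were nearest to Plac8, with differences of 0.0521 to 0.0591. Fn1 had Mir5132, Gm6598 and Gm25238 as its nearest profiles, and Vcan had Lrp1, Slc9a7 and Nlrc5. The mean profile of the 7 genes was nearest to Ebi3 (0.0563), Cracr2a and Cib2.

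Other genes of Ly6C-high monocytes, from a list of 24, also had mostly lower means in Dcir-/- OCs. Of the 23 tested, 22 had the lower mean in Dcir-/- OCs (46.1% of all tested genes did) and 13 did not overlap in that direction (9.34% of all). At an unadjusted p under 0.05, 14 were lower (6.68% of all), and 2 passed the adjusted threshold of limma, both lower (0.292% of all). The median log2 fold change of the 23 genes was -0.43, against -0.77 for the 7 genes. Their summed levels were 5152 to 7312 CPM in WT and 3793 to 4435 CPM in Dcir-/- libraries. Most of these sums came from Lyz2 alone, at 2994 to 4678 CPM in WT and 1953 to 2478 CPM in Dcir-/- libraries. Of the 23 genes, 17 were highest in WT library 3 and 6 in WT library 94. Wfdc21, which encodes a small secreted protein with a protease inhibitor-like fold, fell from 4.10 ± 0.191 to 1.73 ± 0.401 CPM (log2 fold change -0.91, adjusted p = 0.0471). This call lies near the threshold, and the list had 0 calls at that threshold in 10 of the 17 alternatives, among them a median-of-ratios scaling and each fit without WT library 82 or a Dcir-/- library. Wfdc17 (log2 fold change -1.45, adjusted p = 0.0525) and the glutathione transferase gene Mgst1 (-1.14, adjusted p = 0.125) followed. Ccr2, the chemokine receptor by which these monocytes leave the marrow, had a log2 fold change of -0.14 (95% CI -0.60 to 0.31), and Klf4, S100a4 and Emb had fold changes near 0.

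**Figure D5:**
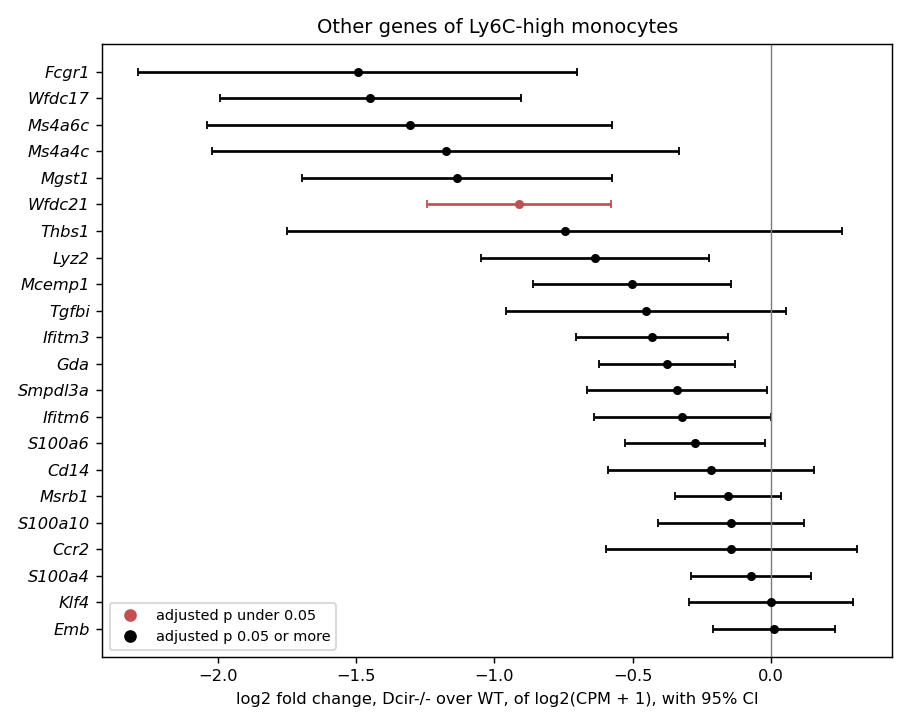
Log2 fold change, Dcir-/- over WT on log2(CPM + 1) (horizontal axis), with its 95% CI, of 22 tested genes of the list of other Ly6C-high monocyte genes (n = 3 per group). Wfdc21, in red, has an adjusted p under 0.05, and 21 of the 22 points lie under 0.

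Markers of other cell types that could be in the cultures were summed and tested in the same way. Over all tested genes, 46.1% had the lower mean in Dcir-/- OCs and 0.292% passed as lower. Of 16 tested neutrophil markers, 16 had the lower mean in Dcir-/- OCs and 5 passed as lower (S100a8, S100a9, Ngp, Ltf and Lcn2), with a median log2 fold change of -0.73 and summed levels of 704.6 to 876.6 CPM in WT and 405.4 to 508.3 CPM in Dcir-/- libraries. Ngp, a neutrophil granule gene, fell from 225.6 ± 27.2 to 123.3 ± 18.4 CPM (log2 fold change -0.87, adjusted p = 0.0388). Ly6g, the surface marker of mature neutrophils, stayed under 1 CPM in all 6 libraries and was not tested. It was at 0.677 ± 0.173 CPM in WT and 0.206 ± 0.102 CPM in Dcir-/- OCs (n = 3 each), without overlap. Of the 17 neutrophil markers in the table, 8 were highest in WT library 94, as Hp was, 7 in WT library 3 and 2 in WT library 82. Of 17 macrophage markers, 17 had the lower mean and 4 passed as lower (C1qa, C1qc, Apoe and Marco), with a median log2 fold change of -0.97 and sums of 5620 to 7663 CPM in WT and 4816 to 5152 CPM in Dcir-/- libraries, while Csf1r, the M-CSF receptor gene shared by monocytes, macrophages and OCs, had a log2 fold change of -0.01. Of 6 tested alternative activation genes, 6 had the lower mean and 1, Clec10a, passed (log2 fold change -1.68, adjusted p = 0.0229), with a median log2 fold change of -0.79 and sums of 280.9 to 616.6 CPM in WT and 166.5 to 243.7 CPM in Dcir-/- libraries. The part of neutrophils and macrophages in the levels of the 7 genes was not tested.

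Further lists held markers of other blood and marrow cells. Their counts stand beside 6.68% of all tested genes lower and 5.82% higher at an unadjusted p under 0.05, and 46.1% with the lower mean. By limma's adjusted p, 0.292% of all tested genes passed as lower and 0.441% in either direction. Of 12 tested genes of Ly6C-low monocytes (sums of 377.8 to 636.5 CPM in WT and 307.2 to 390.0 CPM in Dcir-/- libraries), 8 had the lower mean and 1 passed, Pglyrp1 (log2 fold change -1.12, adjusted p = 0.0214), and Cx3cr1, their fractalkine receptor gene, was at 14.8 ± 4.71 CPM in WT and 22.9 ± 5.71 CPM in Dcir-/- OCs (adjusted p = 0.349). Of 6 tested platelet and megakaryocyte markers, 5 had the lower mean and 1 passed, Pf4, which fell from 29.6 ± 1.65 to 9.92 ± 1.58 CPM (log2 fold change -1.49, adjusted p = 0.00223), and the list's sums were 50.8 to 89.7 CPM in WT and 26.3 to 34.5 CPM in Dcir-/- libraries. Pf4 alone supplied 27.8 to 31.0 CPM of the WT sums and 8.88 to 11.7 CPM of the Dcir-/- sums. Of the 10 markers in the table, 9 were highest in WT library 3, whereas Pf4 was highest in WT library 94. Dendritic cell markers (5 tested) gave 0 calls by limma and 1 higher at an unadjusted p under 0.05, with sums of 55.3 to 99.9 CPM in WT and 75.5 to 99.0 CPM in Dcir-/- libraries. Myeloid progenitor markers (7 tested) gave 0 calls and 3 lower at that level, with 25.9 to 42.2 CPM in WT and 22.1 to 23.2 CPM in Dcir-/- libraries. Lymphocyte markers (2 tested) gave 0 calls and 2 lower, with a median log2 fold change of -0.81 and 16.4 to 24.9 CPM in WT and 7.76 to 13.7 CPM in Dcir-/- libraries. Eosinophil, basophil and mast cell markers (2 tested) gave 0 calls and 0 at an unadjusted p under 0.05, with 7.50 to 15.3 CPM in WT and 5.38 to 8.71 CPM in Dcir-/- libraries. Of 15 stromal markers listed, 12 were present and 2 of these tested, with 0 calls and 1 lower at an unadjusted p under 0.05. Of the 12, 6 stayed under 1 CPM in all libraries, and the sums were 14.9 to 17.9 CPM in WT and 12.3 to 13.2 CPM in Dcir-/- libraries. The 3 erythroid markers in the table stayed under 1 CPM throughout and were not tested.

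Genes that act with the 7 proteins gave 0 calls by limma, where 0.441% of all tested genes were called in either direction. Over all tested genes, 46.1% had the lower mean, and 6.68% were lower and 5.82% higher at an unadjusted p under 0.05. Of 9 tested genes of haptoglobin and heme handling, 8 had the lower mean and 6 were lower at an unadjusted p under 0.05. They included the iron exporter gene Slc40a1, at 93.2 ± 36.9 CPM in WT and 36.4 ± 9.32 CPM in Dcir-/- OCs (adjusted p = 0.118), and the heme oxygenase gene Hmox1, at 199.1 ± 38.4 and 121.9 ± 21.0 CPM (adjusted p = 0.146). Of 10 tested coagulation and fibrinolysis genes, the company of F13a1, 7 had the lower mean and 2 were lower at an unadjusted p under 0.05, Tfpi and Thbd, with a list median of -0.03. Of 7 fibronectin receptor genes, 2 were lower and 1 was higher at that level. The last, Itgb3, encodes an integrin subunit and is also among the OC markers (log2 fold change 0.41, adjusted p = 0.261). Of 4 tested genes for versican's receptors and proteases, 1 was lower at an unadjusted p under 0.05, Tlr2 (log2 fold change -0.85, adjusted p = 0.206). Of 15 monocyte transcription factors, 12 had the lower mean and 5 were lower at that level, with Maf (-1.04, adjusted p = 0.114) and Cebpa (-0.64, adjusted p = 0.264) among them. A list of 14 genes drawn up as paralogs, which also holds the unrelated Hpx, Vcam1 and Plac9a, had 6 tested, of which 5 were lower at an unadjusted p under 0.05, with a median log2 fold change of -0.91. Among them were Chil1, a chitinase-like relative of Chil3 (log2 fold change -0.92, adjusted p = 0.0816), and Ly6e, of the Ly6 family (-0.98, adjusted p = 0.0906).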

How the data were processed

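The 6 libraries (3 WT, 3 Dcir-/-) of OC RNA were assigned to genotypes by their labels. By the study's methods, RNA of an integrity number above 7.0 gave stranded polyA libraries. Per the submitters' processing notes, Trim Galore 0.6.6 and HISAT2 2.2.0 were run on build mm10. The authors trimmed and aligned the reads, counted them on exons with Rsubread and compared groups with edgeR. The deposited values are counts adjusted by the authors to a common library size, taken as a signal because most are not whole, and this reading is inferred from the values. A log2 fold change and an adjusted p-value column of the authors' own comparison were deposited too and were not used.

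CPM is the deposited value over the mean of the 6 column totals. Because the totals were made equal, true depth is unknown, and precision is judged by the spread between libraries. Genes of at least 1 CPM in 3 libraries (14047 of 21492) were tested on log2(CPM + 1) by limma 3.58.1 with a trend (R 4.3.3), with genotype as the only term and Benjamini-Hochberg adjustment over all of them. These fold changes understate those of low genes. The procedure was run on simulated data in which noise was drawn separately for each gene and library. Variation shared by many genes was not simulated, so that run does not show how the test behaves on these libraries.

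The 7 genes and the 20 gene lists (the 7 included) were chosen with earlier results of these data known. Genes named are the 7, Clec4a2, paralogs that could share reads, at most 4 genes of a list by smallest p, and the 3 nearest profiles. Others, such as Csf1r, Ccr2, Klf4, S100a4, Emb, Lyz2, Ly6g, Ltf, Col1a1, Dcn and overlapping genes, were named after their values were seen. A gene of the list of other Ly6C-high monocyte genes is counted but not reported here. Of the identifiers, 21449 matched GENCODE M21. Motifs were searched on both strands of RefSeq promoter windows. Alternatives covered the pseudocount, filter, scaling, limma fit, threshold and each library left out.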

Additional observations from a re-analysis of the deposited data

How the results depend on the processing

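Ly6c2, Chil3, F13a1, Plac8 and Hp had negative log2 fold changes in all 17 alternatives, and Fn1 a positive one in the 16 in which it was tested. Over the fits with 1 library left out, the log2 fold change ran from -0.85 to -0.63 for Ly6c2, from -0.89 to -0.64 for Chil3, from -1.70 to -1.21 for F13a1, from -0.93 to -0.64 for Plac8, from -0.75 to -0.56 for Hp, from 0.06 to 0.47 for Fn1 and from -0.20 to 0.46 for Vcan. Vcan reversed to -0.20 without WT library 94 and to -0.02 without Dcir-/- library 83. The number of the 7 genes called, 0 with all libraries, was 0 to 3 with 1 library left out and 3 at an adjusted p under 0.1. The median of the 7, -0.77, was -0.48 with a pseudocount of 5, which shrinks the fold changes of low genes by construction, and -0.85 to -0.64 with 1 library left out.

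The 2 calls among other Ly6C-high monocyte genes became 0 with a pseudocount of 0.1 or 0.5, when genes needed only 1 adjusted count in some library, or 5 CPM in 3 libraries (fewer genes tested), with median-of-ratios scaling and with array quality weights, 1 with no trend, and 0 to 4 with 1 library left out. The calls among all genes, 62, became 41 with a pseudocount of 5, 33 with the 5 CPM filter, 39 with array quality weights, 33 with no trend, 112 at an adjusted p under 0.1, and 2 to 126 with 1 library left out (126 without WT library 3, 2 without Dcir-/- library 22). The cause was not tested. The fit of array quality weights stopped before it converged. Of 189 values under alternatives, 155 kept their direction and their side of the threshold or moved by less than their spread or 1.5 times. No paired analysis was possible because the WT and Dcir-/- libraries share no replicate number. With 3 libraries a group and adjusted counts in place of raw ones, differences in genes near 1 CPM, such as Fn1, are the least certain.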
